A study of Mus musculus with 6 samples.

Results

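Most of the genes described here make, sense or remove extracellular adenosine. They are the ectoenzymes Nt5e and Entpd1, the adenosine receptors Adora2a and Adora2b, and Ada, Adk and Slc29a1, which handle adenosine once made. Dpp4, which encodes a peptidase, is listed with them. The genes were measured in regulatory T cells (Treg), the CD4 T cells defined by the transcription factor Foxp3. The 8 genes were chosen as a pathway with earlier results of these arrays known, and every probe set that the array's annotation gives to a listed symbol alone was read. Of the 8 symbols, 6 had such probe sets, 18 in all out of 45037 on the array; Adora2a and Adora2b are not analysed here. Because the choice rests on the same contrast, the members' differences below are a description and carry no test.

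One group holds 3 arrays of induced Treg (iTreg) from TBmc mice on a BALB/c background with a Foxp3-GFP reporter. They were sorted from mesenteric lymph nodes after 1 week of oral ovalbumin at 1% and taken from the Nrp-negative gate. In TBmc mice every T cell has one receptor, specific for ovalbumin, and recombinase is missing, so that Foxp3-positive cells in them arise outside the thymus. The other group holds 3 arrays of total Treg from the same nodes of wild-type (WT) BALB/c mice with the same reporter, with no feeding stated. All mice were 4 to 6 weeks old. The arrays are one-colour Affymetrix mouse arrays, and the question is what sets extrathymic Treg apart from the whole Treg pool. The groups differ in genotype, receptor, feeding and gate at once, and these cannot be told apart. The labels do not say which mice the replicates came from, so the spread between arrays may be technical in part.

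Labels of 2 arrays disagree with their titles: WT replicate 1 carries the Nrp-negative cell label, and iTreg replicate 1 has a strain label without TBmc. Median signals ran from 24.26 to 27.45 in iTreg and from 21.07 to 32.30 in WT Treg. The lowest was that of WT replicate 3, whose spiked hybridisation controls were also the brightest, with a mean log2 signal of 12.90. Gapdh ratios of 3′ to 5′ signal, a measure of RNA or labelling quality, were 8.342, 5.597 and 10.41 in iTreg replicates 1 to 3. In WT replicates 1, 2 and 3 they were 4.855, 5.756 and 5.064 (exact permutation test, two-sided p = 0.200). The smallest p possible with 3 against 3 is 0.1. The same ratios for actin were 1.298, 1.193 and 0.9997 in iTreg, against 1.100, 1.204 and 1.250 in WT Treg (same permutation test, p = 0.800). All 5 CD4 T cell markers with a probe set were above background on every array. Of these, Cd5 was lower in iTreg, at 823, 661 and 520, against 1445, 1323 and 1392 in WT Treg. Cd3g, Cd4, Cd3e and Cd3d overlapped between the groups. The Foxp3 probe set was close to background in both groups. Summed signals of 6 Treg markers, Foxp3 among them, were 8682 to 10353 in iTreg, against 13530 to 17630 in WT Treg. Il2ra, Gpr83 and Ikzf2 were lower on every iTreg array than on every WT array, while Ctla4, Ikzf4 and Foxp3 overlapped. Background was taken as the highest signal on any array of 27 bacterial control probe sets to which no target was added, 28.5. That level was set by WT replicate 2 alone. The highest such control was 17.64, 10.76 and 14.62 on iTreg replicates 1, 2 and 3. On WT replicates 1 and 3 it was 10.89 and 17.66.

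Extracellular ATP acts as a danger signal, and Treg are known for converting it to adenosine, which restrains neighbouring T cells. CD39, the product of Entpd1, removes phosphates from ATP and ADP to give AMP. CD73, the product of Nt5e, turns AMP into adenosine. Adenosine then acts on the receptors encoded by Adora2a and Adora2b, which raise cAMP, or is taken up by the transporter ENT1 (Slc29a1), phosphorylated by adenosine kinase (Adk) or deaminated by adenosine deaminase (Ada). CD26, the product of Dpp4, is a peptidase; in humans it also anchors adenosine deaminase at the cell surface.

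Promoter sequences are shown for Nt5e and Entpd1, because these are the members whose signals differed most between the groups. They come from RefSeq on build GRCm38.p6, run 5′ to 3′ on the plus strand and cover 250 bases before to 50 bases after a transcription start. Capitals mark matches on either strand to the GC box, spelled GGGCGG, the CCAAT box, the CREB/ATF site core, spelled TGACG, the core of hypoxia-inducible factors, spelled ACGTG, the Runx core, spelled TGTGGT, the STAT site, spelled TTCNNNGAA, and the TATA box, spelled TATAAA.
Nt5e, chr9:88327359-88327658: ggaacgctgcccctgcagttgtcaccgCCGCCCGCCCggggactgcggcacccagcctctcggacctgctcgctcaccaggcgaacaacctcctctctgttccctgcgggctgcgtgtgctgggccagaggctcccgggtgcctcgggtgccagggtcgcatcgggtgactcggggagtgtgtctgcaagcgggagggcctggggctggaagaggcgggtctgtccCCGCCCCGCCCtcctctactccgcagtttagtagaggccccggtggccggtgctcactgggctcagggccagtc
Entpd1 upstream start, chr19:40612116-40612415: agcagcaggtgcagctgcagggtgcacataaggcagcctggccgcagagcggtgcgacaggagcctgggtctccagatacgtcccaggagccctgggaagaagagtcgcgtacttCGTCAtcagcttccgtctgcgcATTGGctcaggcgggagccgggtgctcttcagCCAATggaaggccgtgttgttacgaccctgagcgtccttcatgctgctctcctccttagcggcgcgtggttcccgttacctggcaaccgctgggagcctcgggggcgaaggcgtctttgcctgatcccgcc
Entpd1 downstream start, chr19:40659520-40659819: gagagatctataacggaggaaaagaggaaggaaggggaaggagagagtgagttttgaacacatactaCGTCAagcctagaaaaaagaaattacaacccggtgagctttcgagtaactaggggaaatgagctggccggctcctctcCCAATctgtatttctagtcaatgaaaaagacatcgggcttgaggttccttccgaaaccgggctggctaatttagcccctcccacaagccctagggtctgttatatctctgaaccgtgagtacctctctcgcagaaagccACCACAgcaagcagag
The Nt5e window held 4 GC boxes, which lie in 2 overlapping pairs, and none of the other motifs, at a GC content of 71%. Neither Entpd1 window held a GC box. The upstream one had 2 CCAAT boxes and 1 CREB/ATF site core, and the downstream one had 1 of each and a Runx core. Among all 32851 promoter windows, 35.7% held a GC box, 37.4% a CCAAT box, 20.8% a CREB/ATF site core and 16.8% a Runx core. So these matches are common, and the Nt5e and Entpd1 windows shared no motif of the set.

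Nt5e and Entpd1 were lower in iTreg on the probe sets with the largest differences, all iTreg arrays lay below all WT arrays on 1 of the 6 Adk probe sets, and Ada, Dpp4 and Slc29a1 had overlapping groups on each of theirs. Differences are given as iTreg minus WT Treg on the log2(signal + 16) scale, where the added 16 keeps dim signals from dominating and understates their change. Over the 18 probe sets 13 differences were negative and 5 positive, and 12 were within 0.5 of 0. In 4 of the 17 probe sets bright enough to be tested all 3 iTreg arrays lay below all 3 WT arrays, and in 0 above; of all 27022 probe sets tested, 6.89% had such groups with iTreg lower and 4.54% with iTreg higher. In the limma fit over all of these, 1 member probe set was among the calls lower in iTreg at an adjusted p under 0.05 and 0 higher, where 0.0222% of all probe sets were called lower and 0.00370% higher. That call, Nt5e 1428547_at, ended with the replicate number as a block and when any array other than iTreg replicate 2 was left out. Nothing is read from these counts, since the contrast entered the choice of the genes. The median difference was -0.17 over the 17 and -0.02 over all tested.

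**Figure D1:**
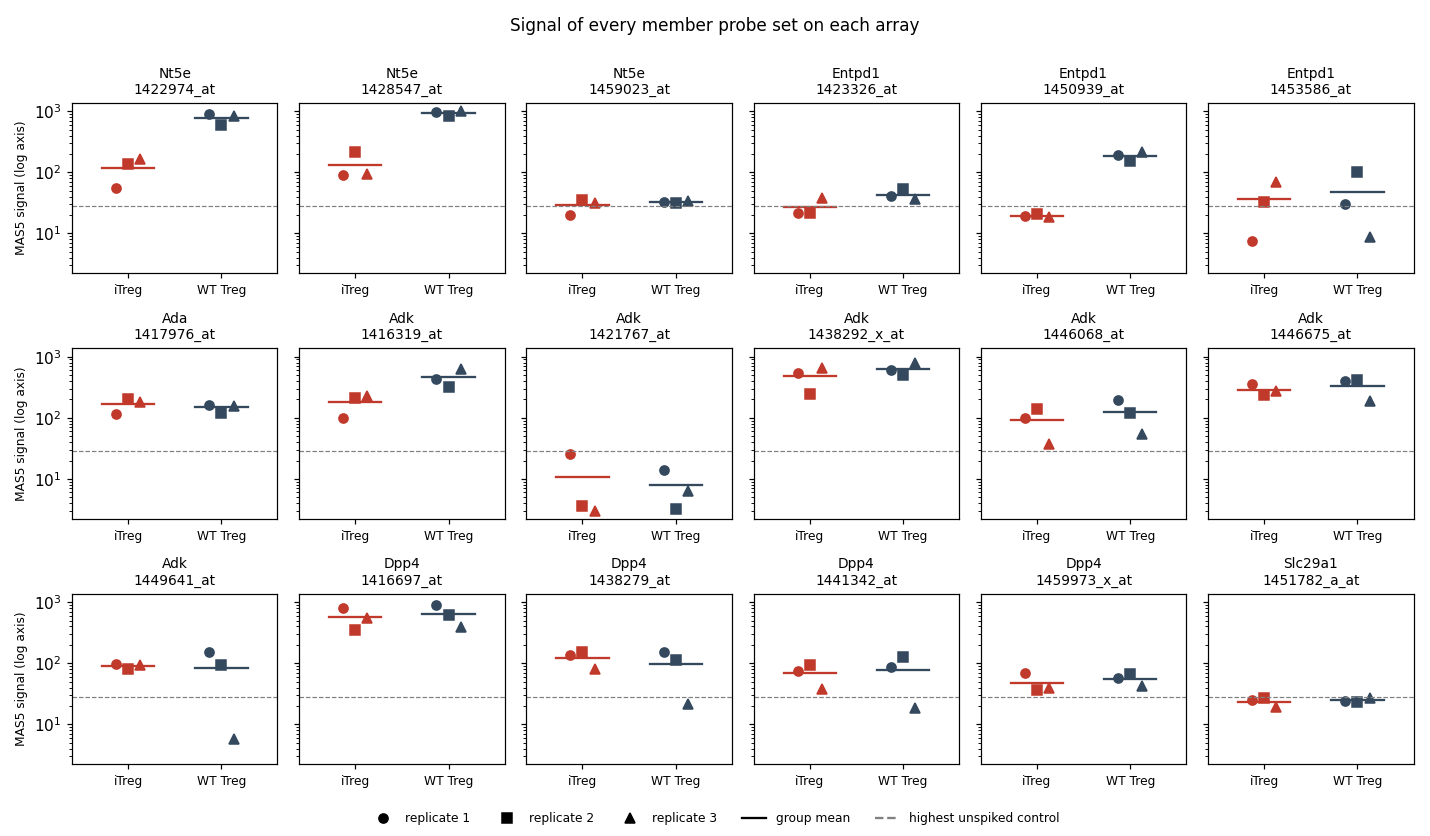
Signal on a log axis for each of the 18 probe sets, with iTreg arrays in red on the left and WT Treg arrays in dark blue on the right; marker shape gives the replicate, the bar the group mean of 3 arrays, and the dashed line the highest unspiked control at 28.5. The groups are far apart for Nt5e 1422974_at and 1428547_at and Entpd1 1450939_at, narrowly apart for Adk 1416319_at, and overlapping in the other 14 panels.

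Among the ectoenzymes, Nt5e was measured in both groups and was far lower in iTreg. Probe set 1428547_at read 90.0, 212 and 92.4 in iTreg replicates 1, 2 and 3, against 960, 836 and 1022 in WT replicates 1, 2 and 3. The WT arrays were tight, while iTreg replicate 2 lay more than 2 times above the other iTreg arrays and still far below every WT array. The means were 132 ± 70.0 in iTreg, against 939 ± 94.5 in WT Treg (SD, n = 3 each), which is a log2 difference of -2.79 (standard error 0.37). Between the highest iTreg and the lowest WT array a gap of 1.90 log2 units remained.

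The Nt5e probe set annotated to the RefSeq mRNA, 1422974_at, gave the same picture. Its signal was 56.0, 138 and 164 in iTreg replicates 1, 2 and 3, against 916, 592 and 849 in WT replicates 1, 2 and 3. All iTreg arrays were again below all WT arrays, by a gap of 1.75, but the order within iTreg differed: replicate 3 was the highest here and replicate 2 on the other probe set. The iTreg mean was 0.152 times the WT mean here and 0.140 times on 1428547_at. All 6 iTreg values of both probe sets were above the unspiked controls, so Nt5e RNA was lower in iTreg but still measured. Whether fewer cells carried Nt5e RNA or each cell carried less cannot be told apart in bulk samples.

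The remaining Nt5e probe set, 1459023_at, did not separate the groups. It read 20.1, 35.1 and 31.8 in iTreg, against 32.4, 32.1 and 34.1 in WT Treg, a difference of -0.13. All 6 arrays were close to the highest unspiked control of 28.5, so this probe set measured little above background in either group.

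Of the Entpd1 probe sets, 1450939_at was above the background level of 28.5 in WT Treg and not in iTreg. Its values were 19.4, 20.8 and 18.4 in iTreg replicates 1, 2 and 3, against 192, 151 and 212 in WT replicates 1, 2 and 3. All iTreg arrays were below the unspiked control level of 28.5, and all WT arrays were more than 5 times above it. Each iTreg value was nevertheless above the highest unspiked control of its own array, 17.64, 10.76 and 14.62 in replicates 1, 2 and 3. Against 28.5 the iTreg level is only a bound. With each iTreg array set at 28.5, WT Treg were at least 6.41-fold higher than iTreg. The log2 difference of -2.49 (standard error 0.39) depends on the pseudocount, with -3.16 at a pseudocount of 1 and -1.57 at 64.

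The other Entpd1 probe sets were dim in both groups. On 1423326_at, which the annotation ties to the same sequence record as 1450939_at, signals were 21.9, 21.4 and 38.3 in iTreg, against 40.9, 52.7 and 36.2 in WT Treg. The groups overlapped by a single pair of arrays, iTreg replicate 3 above WT replicate 3, and the difference was -0.47, or -0.73 without both replicate 3 arrays. Values on 1453586_at were scattered, at 7.45, 32.2 and 68.9 in iTreg, against 30.3, 102 and 8.88 in WT Treg. Its difference of -0.17 ran from -0.69 to 0.43 when single arrays were left out, so it held no direction. Only 1 of the 3 Entpd1 probe sets thus separated the groups.

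Cells other than Treg also express CD39 and CD73, B cells, myeloid cells and endothelium among them, so their markers were read on the same arrays. Of 6 B cell markers 0 were above background on all 6 arrays, and their summed signal was 83.7 to 124 in iTreg, against 74.7 to 124 in WT Treg. The defining B cell genes Ms4a1 and Pax5 were at or below background on every array. Cd79b, a chain of the B cell receptor, overlapped at 25.6, 17.8 and 83.7 in iTreg, against 43.3, 54.3 and 58.7 in WT Treg, and so was above 28.5 on 1 iTreg array and on all 3 WT arrays. Of 7 macrophage, monocyte or neutrophil markers 0 were above background on all arrays, with sums of 147 to 307 in iTreg, against 67.0 to 124 in WT Treg. That sum was higher in iTreg, and its largest terms there were S100a9, S100a8, Cd68 and Lyz2, while Adgre1 was at or below background throughout. In the endothelial or stromal list of 6 only Pecam1, which T cells also express, was above background on all arrays, and the sums were 404 to 834 in iTreg, against 384 to 454 in WT Treg. Of 5 dendritic cell markers only Zbtb46 was above background on all arrays. Their sums were 77.3 to 202 in iTreg, against 75.5 to 105 in WT Treg. The plasma cell and NK cell markers were at or below background on every array. Erythroid markers summed to 16.8 to 86.6 in iTreg, against 44.0 to 55.5 in WT Treg. The 2 CD8 T cell markers, both above background, summed to 101 to 225 in iTreg, against 73.2 to 107 in WT Treg. The part of other cells in the members' signals was not tested beyond these values.

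**Figure D2:**
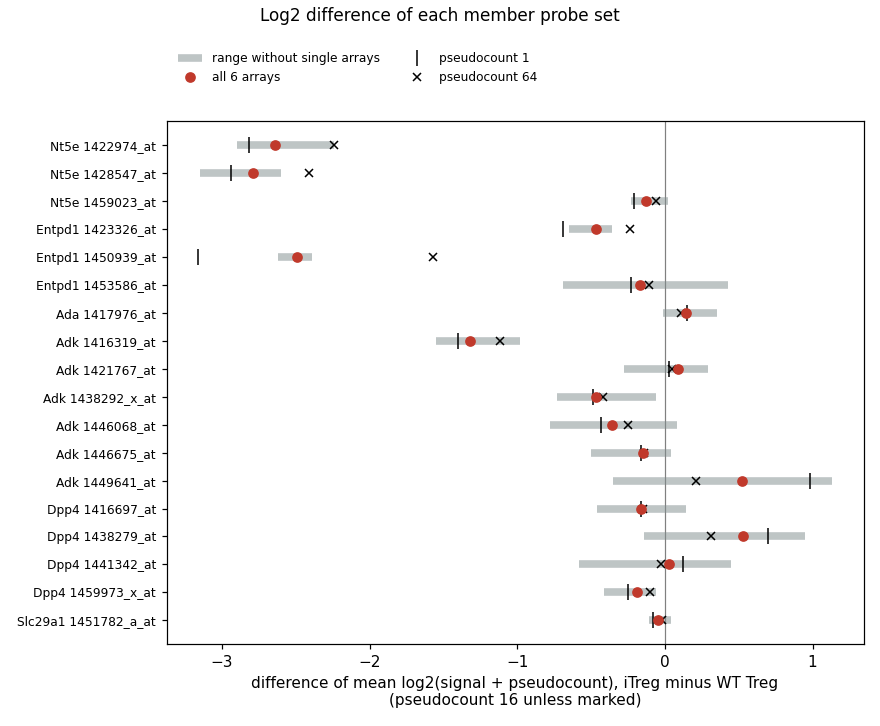
Difference of group means for each member probe set (red points), with the range when single arrays are left out (grey bars) and the values at pseudocounts of 1 and 64 (ticks and crosses). The probe sets Nt5e 1428547_at, Nt5e 1422974_at and Entpd1 1450939_at stay at or below -1.57 under these settings, and Adk 1416319_at at or below -0.98, while most of the rest lie around 0.

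Adenosine kinase, which returns adenosine to AMP inside the cell, was read by 6 probe sets that gave unequal pictures. On 1416319_at, annotated to the RefSeq mRNA, the signal was 99.6, 211 and 224 in iTreg replicates 1, 2 and 3, against 431, 318 and 632 in WT replicates 1, 2 and 3. All iTreg arrays were below all WT arrays, with a gap of 0.48 log2 units that is smaller than the SD within groups of 0.54. The means were 178 ± 68.2 in iTreg, against 460 ± 159 in WT Treg (SD, n = 3 each), a difference of -1.32 (standard error 0.40). Probe set 1438292_x_at, whose name marks probes that can match other transcripts, overlapped at 546, 244 and 647 in iTreg, against 606, 501 and 782 in WT Treg, a difference of -0.47. The remaining Adk probe sets differed by -0.36, -0.15, 0.09 and 0.52, with overlapping groups. That at 0.09, 1421767_at, is also annotated to the RefSeq mRNA but was below background on all 6 arrays, and it was the 1 member probe set too dim to be tested.

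The Adk difference of 0.52 rested on a single array. On 1449641_at the signal was 96.7, 81.4 and 92.1 in iTreg, against 154, 91.9 and 5.75 in WT Treg. WT replicate 3 alone was far below the other arrays. Without it the difference was -0.35 in place of 0.52, and without both replicate 3 arrays -0.37. WT replicate 3 also had the lowest median signal of the 6 arrays, and the part of that in this value was not tested.

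Adenosine deaminase, the enzyme that converts adenosine to inosine, did not separate the groups. Its single probe set read 117, 205 and 179 in iTreg replicates 1, 2 and 3, against 165, 121 and 158 in WT replicates 1, 2 and 3. The iTreg values spanned those of WT Treg, and the difference of 0.14 (standard error 0.38) was smaller than the SD within groups of 0.31.

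Dpp4 was well above background on its RefSeq probe set 1416697_at, with 794, 353 and 558 in iTreg replicates 1, 2 and 3, against 906, 619 and 393 in WT replicates 1, 2 and 3. Both groups spread more than 2-fold between their own arrays, and their difference of -0.16 carried a standard error of 0.39. On 1438279_at the values were 139, 150 and 79.8 in iTreg, against 153, 114 and 21.4 in WT Treg. WT replicate 3 was again the lowest array. The difference of 0.53 was -0.14 without it and 0.11 without both replicate 3 arrays, so it held no direction. Probe sets 1441342_at and 1459973_x_at differed by 0.03 and -0.19. Dpp4 RNA was thus measured in both groups with no difference beyond the spread of the arrays on any of its 4 probe sets.

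Slc29a1, the transporter that carries adenosine across the membrane in either direction, was not above 28.5 on any array. Its single probe set read 24.7, 26.9 and 19.0 in iTreg, against 23.9, 23.3 and 26.7 in WT Treg, and no fold is given. On every array but WT replicate 2, which set that level, it was above the highest unspiked control of the same array. A difference in Slc29a1 was not measurable with this probe set.

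The genes whose pattern over the 6 arrays was most like that of Nt5e were sought by the root mean square distance between centred log2(signal + 16) profiles, over 21014 tested probe sets of named genes. Closest to Nt5e 1428547_at was Itgb1, the integrin beta 1 chain, at a distance of 0.36 log2 units, with 57.6, 118 and 52.9 in iTreg, against 300, 405 and 501 in WT Treg. Entpd1 1450939_at was next at 0.37, followed by Sccpdh, a saccharopine dehydrogenase-like protein, at 0.42. These were nearer than the other Nt5e probe set that separated the groups, at 0.45, and the median distance over all probe sets searched was 1.48. Sccpdh read 1.37, 27.9 and 1.30 in iTreg, all below 28.5, against 81.5, 120 and 73.9 in WT Treg. The distance counts the step between the groups, the same contrast that entered the choice of the genes, so nearness is a description only. Itgb1 followed Nt5e 1428547_at in having its highest iTreg value in replicate 2, whereas Entpd1 1450939_at was flat across iTreg, where it was below 28.5. iTreg replicate 2 also had the lowest Gapdh ratio of its group, 5.597. Nt5e 1422974_at was highest in replicate 3, whose Gapdh ratio was 10.41 and whose actin ratio, the lowest of its group, was 0.9997. The part of array quality in these values was not tested.

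**Figure D3:**
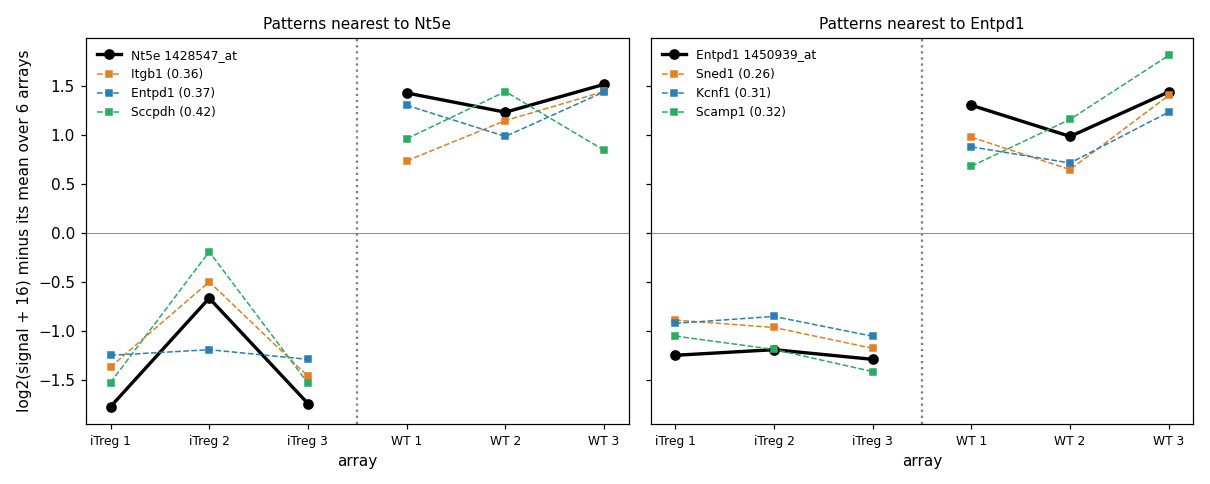
Log2(signal + 16) of each gene minus its mean over the 6 arrays, for Nt5e (left, black) and Entpd1 (right, black) with the 3 genes of the smallest root mean square distance, given in brackets. Every gene shown lies below its mean on the 3 iTreg arrays and above it on the 3 WT arrays.

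For Entpd1 1450939_at the nearest were Sned1, an extracellular matrix protein, at 0.26, the potassium channel subunit Kcnf1 at 0.31 and the vesicle trafficking protein Scamp1 at 0.32. All 3 were below 28.5 on every iTreg array, as Entpd1 1450939_at was. Sned1 read 4.14, 3.12 and 0.494 in iTreg, against 57.5, 42.5 and 82.8 in WT Treg. The likeness therefore rests on a common step between the groups from values below 28.5, and the distance of the other Entpd1 probe sets was 1.06 and 1.51.

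The rest of the pathway gave no call. The 5 lists of other pathway genes held 218 probe sets of 93 genes, of which 133 probe sets of 61 genes were tested. By limma with adjustment over all 27022 probe sets 0 rose and 0 fell; at an unadjusted p under 0.05, 3 were higher and 7 lower in iTreg, or 7.52% of the 133. Among all probe sets tested 6.21% had such a p, 2.44% higher and 3.77% lower in iTreg. The median difference was -0.07 over the 133. Enpp1, Cd38, Entpd4 and Adora1 are not analysed here.

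Among other enzymes that degrade extracellular nucleotides, 16 probe sets of 6 genes were tested and 0 were called, with a median of 0.07. Entpd5, an ER-resident relative of CD39 that acts on UDP and GDP, differed by -1.63 on 1458677_at (limma adjusted p = 0.485), with 39.8, 27.9 and 24.1 in iTreg, against 75.1, 176 and 150 in WT Treg. On that probe set all iTreg arrays were below all WT arrays, yet the 5 others of Entpd5 differed by -0.28 to 0.29 with overlapping groups.

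Of the channels that release ATP and the P2 receptors that sense it, 11 probe sets of 7 genes were tested and 0 were called, with a median of -0.28. Panx1, a channel through which cells release ATP, had 576, 739 and 713 in iTreg, against 972, 958 and 1795 in WT Treg, a difference of -0.81 (limma adjusted p = 0.775) without overlap. P2rx7, the ATP-gated channel whose opening can kill Treg, overlapped on its 3 probe sets, with differences from -0.43 to 0.33. P2rx4, another ATP-gated channel, overlapped too, with differences from -0.69 to -0.28 on the 3 probe sets tested.

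The receptor and cAMP list had 64 tested probe sets of 24 genes and a median of -0.10. Adora3 was at or below background on both of its probe sets and was not tested. Gnaq, a G protein alpha subunit that couples to phospholipase C and not to cAMP, had the smallest p of the list, with 12.9, 20.6 and 19.9 in iTreg, against 89.8, 78.8 and 78.4 in WT Treg on 1429559_at (limma adjusted p = 0.377). All 3 iTreg values were below 28.5, so WT Treg were at least 2.88-fold higher. On Gnaq 1428939_s_at the iTreg arrays were also all below 28.5, and WT Treg were at least 2.02-fold higher. The other 5 Gnaq probe sets had overlapping groups, with differences of -0.74 to -0.05, and no Gnaq probe set passed the test. Adcy7, the adenylyl cyclase gene typical of blood cells, differed by 0.64 on 1456307_s_at (limma adjusted p = 0.775), with 4115, 3673 and 5981 in iTreg, against 2651, 2981 and 2979 in WT Treg, and by 0.15 and -0.35 on its others. Gnas, the stimulatory G protein through which Adora2a and Adora2b receptors act, overlapped at 1859, 2324 and 2908 in iTreg, against 2393, 2017 and 3040 in WT Treg on 1450186_s_at. The protein kinase A subunit Prkar1a, at 3017, 2753 and 4067 in iTreg, against 2566, 3147 and 3881 in WT Treg on 1452032_at, overlapped as well. The inhibitory G protein Gnai2 differed by 0.09 and 0.29, the protein kinase A catalytic subunit Prkacb by -0.34, 0.46 and 0.22, and the cAMP-responsive factor Creb1 by -0.41 to 0.19 over 5 tested probe sets, and none of these passed. Crem, a relative of Creb1 that cAMP induces, differed by -0.69 to 0.69 over its 4 probe sets and so had no common direction.

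**Figure D4:**
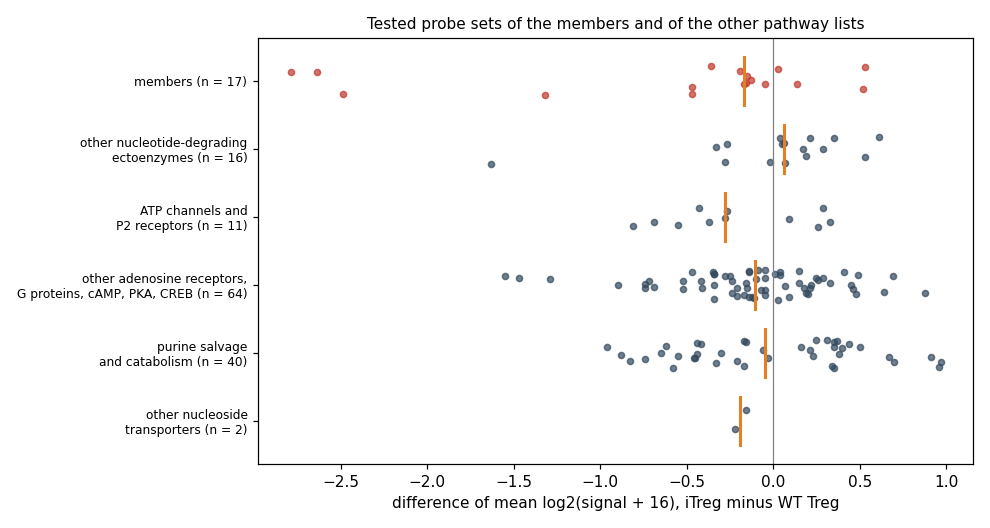
Difference of group means for each tested probe set of the members (red) and of the 5 other pathway lists (dark blue), with the median of each row in orange; vertical scatter within a row has no meaning. The members' 3 lowest points, at -2.79, -2.64 and -2.49, lie below every point of the other lists, of which the lowest is -1.63, and the medians lie between -0.28 and 0.07.

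Intracellular purine enzymes were tested with 40 probe sets of 23 genes, with a median of -0.04 and 0 calls. Ampd2, an AMP deaminase, had the smallest p of the list at a difference of 0.97 (limma adjusted p = 0.741), with 631, 629 and 999 in iTreg, against 333, 569 and 259 in WT Treg on 1438941_x_at. Ahcy, which releases adenosine from S-adenosylhomocysteine, read 547, 586 and 222 in iTreg, against 627, 597 and 937 in WT Treg, a difference of -0.74 (limma adjusted p = 0.850). Its groups barely parted, and iTreg replicate 3 was far below the other arrays. Pnp and Hprt, which act on inosine and its base, differed by -0.16 and -0.06 with overlapping groups. Of the other nucleoside transporters only Slc29a3 was bright enough to be tested, with differences of -0.22 and -0.16, while Slc29a2 was below background.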

How the data were processed

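Total RNA of sorted Treg was measured on 6 arrays, 3 of iTreg and 3 of WT Treg; sample titles gave the group and number of each. Extraction was by Trizol and the label was biotin, per the labels' protocols. Each probe set has 1 deposited MAS5 intensity per array, not logged, per the submitters' processing notes; no MAS5 version is given in the sources used here. The 2% trimmed mean was 150.0 on every array, so that signals are relative to a common array level. Detection calls were not used here, and the number of arrays limits the precision.

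Of 45101 probe sets 64 were controls. The platform annotation gave 34945 probe sets 1 symbol, 932 several and 9160 none, and symbols were updated through RefSeq names where their gene ID allowed. Each probe set was kept apart. The 27022 with a mean log2(signal + 16) at or above the 40th percentile, 4.91, entered limma 3.58.1 (R 4.3.3; lmFit, then eBayes with an intensity trend) for a two-sided test, with Benjamini-Hochberg adjustment over all of them at 0.05. Within each array pair of a group at least 85.7% of probe sets differed by over 10%. So no 2 arrays of the same group held the same values. Pairs across the groups were not compared in this way.

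The members and lists were chosen with earlier results of these data known. Named were all members, pathway genes fixed by role, the gene of smallest p in each pathway list, and the 3 genes nearest in pattern to Nt5e and to Entpd1, predicted genes and receptor segments left out. The fit was run on simulated data with independent normal values and planted changes. These data lacked array effects and a spread particular to each probe set, so no result here rests on them. Alternatives were pseudocounts of 1 and 64, quantile and median scaling, no filter or a 60th percentile filter, no trend, robust estimation, array weights, 1 probe set per gene, a block for the replicate number, leaving out single arrays, and leaving out the 2 arrays whose labels disagree; leaving out both replicate 3 arrays was added after seeing the data.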

Additional observations from a re-analysis of the deposited data

How the results depend on the processing

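Over all 27022 probe sets limma called 7, of which 6 were lower and 1 higher in iTreg. The count was 2 with a pseudocount of 1, 2 without a filter, 12 with array weights, 3 with 1 probe set per gene (10916 tested) and 3 with the replicate number as a block. Leaving out single arrays gave 0 to 9 calls. Without both arrays with label doubts it was 0 (1253 at an unadjusted p under 0.05), and without both replicate 3 arrays 0 (1403 at that level). The causes were not tested, but the sets with arrays left out hold fewer samples. Of the members, Nt5e 1428547_at was called with all arrays. Leaving out any array but iTreg replicate 2 ended that call, as did a pseudocount of 1, no filter, the replicate block and both sets of 2 arrays left out; without the intensity trend it ended and Entpd1 1450939_at was called in its place, and with array weights 3 member probe sets were called. The other pathway lists had 0 calls in every alternative run. Deviations of same-numbered arrays correlated at 0.191, 0.037 and 0.118 for numbers 1, 2 and 3; each array correlated best with its own number, a hint from the data only, and numbers were not taken to pair the samples. Of the 18 member probe sets 7 kept one sign in all 13 alternatives. Among them were 1422974_at (-2.90 to -2.12) and 1428547_at (-3.15 to -2.41) of Nt5e, 1450939_at (-3.16 to -1.57) of Entpd1 and 1416319_at (-1.55 to -0.98) of Adk. Of the 13, the replicate block leaves the differences as they are by construction, so it could not change a sign. No share over all probe sets is given beside the 7, and nothing is read from it. Probe sets near 28.5, such as those of Slc29a1 and the dimmer ones of Nt5e and Entpd1, are limited by signal over background.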
